A study of Mus musculus with 8 samples.

Results

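The genes described here are the 8 receptors, chosen by name, that place a helper T cell in the B cell follicle, at its border or in the T cell zone of a lymph node, or let it leave the node: Cxcr5, Ccr7, Gpr183, Cxcr4, S1pr1, S1pr2, S1pr4 and Selplg. They are 8 of 39179 genes in the count files, and all 8 were among the 11475 genes with enough counts to test. RNA-seq counts were available for 8 libraries in 4 groups of 2: follicular helper (Tfh) cells with a Bach2 vector, Tfh cells with an empty vector, non-Tfh cells with a Bach2 vector and non-Tfh cells with an empty vector. Bach2 is a transcriptional repressor that restrains effector differentiation of lymphocytes.

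All 4 groups held CD4 T cells of Smarta mice, whose transgenic T cell receptor recognises a glycoprotein peptide of lymphocytic choriomeningitis virus (GP61-80), crossed to mice with a tamoxifen-activated Cre recombinase (CreERT2). Every group was transduced with retrovirus, transferred into C57BL/6 hosts, and immunized under the skin with nitrophenol and GP61-80 on mouse serum albumin. Tamoxifen was given on day 5, and Thy-1.1+ CD44hi donor cells were sorted 18 hours later, on day 6, from pooled inguinal lymph nodes as CXCR5+ PD-1+ (Tfh) or CXCR5- PD-1- (non-Tfh). The vector had therefore been switched on in cells that were already primed, and Bach2 transcripts from the vector and from the cells' own gene are counted together. Because CXCR5 protein set the gate, Cxcr5 was compared only between vectors.

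Chemokine receptors steer lymphocytes along gradients laid down by stromal cells. CXCR5 follows CXCL13 into the follicle, CCR7 follows CCL19 and CCL21 in the T cell zone, GPR183 (also EBI2) follows an oxysterol to the outer follicle and the border with the T cell zone, and CXCR4 follows CXCL12, which is abundant in the dark zone of germinal centres. S1PR1 senses the sphingosine 1-phosphate (S1P) of lymph and lets cells leave the node, whereas S1PR2 senses the same lipid through another G protein and holds cells in the germinal centre; S1PR4 is a further S1P receptor of lymphocytes. Selplg encodes PSGL-1, a selectin ligand that is low on Tfh cells and that also helps the response to CCR7 ligands.

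Library totals ran from 7862879 to 9889859 counts, so that 3 counts, the upper limit for a gene with none, corresponded to 0.303 to 0.382 CPM (counts per 1000000 counts of the library). Intervals and limits of this kind cover counting error only. Bach2 was 128 ± 9.85 CPM with its vector and 12.6 ± 1.99 CPM with empty vector in Tfh cells, and 144 ± 19.1 CPM with its vector against 26.9 ± 2.87 CPM with empty vector in non-Tfh cells (SD, n = 2 each). The gate was visible in Pdcd1, which encodes PD-1 (557 ± 145 CPM in Tfh and 182 ± 28.6 CPM in non-Tfh cells with empty vector), while Cd44 was 216 ± 36.6 CPM in Tfh and 222 ± 30.9 CPM in non-Tfh cells. Thy1 was lower in Tfh cells with empty vector (adjusted p under 0.05 by edgeR), at 74.3 ± 12.1 CPM against 109 ± 8.64 CPM in non-Tfh cells. The summed level of 5 T cell markers was 7368 to 10706 CPM over the 8 libraries and that of 10 B cell markers 5.23 to 18.0 CPM. The neutrophil markers S100a8, S100a9 and Mpo were at 0 in all libraries, and Ly6g was at most 0.127 CPM. Plasma cell markers (4) summed to 156 to 203 CPM, carried by Xbp1, as Tnfrsf17 was at 0, Jchain at most 3.17 CPM and Sdc1 at most 3.99 CPM. For 5 stroma or endothelium markers the sum was 177 to 281 CPM, with Pecam1 alone at 176 to 280 CPM. The 2 CD8 T cell markers summed to 13.3 to 20.4 CPM, carried by Cd8b1, as Cd8a was at most 0.764 CPM. The sum of 6 macrophage or monocyte markers was 5.52 to 13.6 CPM. The summed level of 9 Tfh markers includes the gate genes Cxcr5 and Pdcd1, so part of its difference between cell types was set by the sort. The sum was 2532 to 2979 CPM in Bach2 Tfh libraries, 3140 to 3557 CPM in empty vector Tfh libraries, 984 to 1133 CPM in Bach2 non-Tfh libraries and 1423 to 1531 CPM in empty vector non-Tfh libraries. With empty vector 8 of the 9 were higher in Tfh cells and Icos was lower (666 ± 114 CPM against 927 ± 15.9 CPM). For the vector, 0 of the 9 had an adjusted p under 0.05 by edgeR in either cell type, beside 1.71% of all genes in Tfh and 0.871% in non-Tfh cells. Averaged over the cell types 3 fell, beside 2.9% of all genes. Of the 2 natural killer markers Ncr1 was at 0, and the sum, carried by Klrb1c, was 85.3 to 93.9 CPM in Bach2 Tfh, 54.4 to 62.9 CPM in empty vector Tfh, 16.6 to 17.5 CPM in Bach2 non-Tfh and 9.01 to 16.9 CPM in empty vector non-Tfh libraries. The sum of 5 dendritic cell markers was 3.02 to 3.26 CPM in Bach2 Tfh, 2.31 to 4.68 CPM in empty vector Tfh, 9.71 to 14.7 CPM in Bach2 non-Tfh and 11.02 to 14.5 CPM in empty vector non-Tfh libraries. The part of these shifts in the receptor values was not tested.

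RefSeq promoter windows (GRCm38.p6, 250 bases before to 50 after the transcription start, written in the direction of transcription) were at hand for 4 of the 8 genes: S1pr2, S1pr4, Gpr183 and Cxcr4. The windows of the S1P receptor that was higher in Tfh cells, the S1P receptor that was lower there and the oxysterol receptor are shown because a DNA-binding factor was the variable of the experiment. Capitals mark the motif matches found among those searched on both strands, which were TGACTCA and TGAGTCA (the core shared by AP-1 and Bach factors), CCACCC (KLF factors), TGTTTAC (forkhead factors) and the E boxes CAGCTG and CACCTG.
S1pr2, chr9:20976744-20977043, minus strand: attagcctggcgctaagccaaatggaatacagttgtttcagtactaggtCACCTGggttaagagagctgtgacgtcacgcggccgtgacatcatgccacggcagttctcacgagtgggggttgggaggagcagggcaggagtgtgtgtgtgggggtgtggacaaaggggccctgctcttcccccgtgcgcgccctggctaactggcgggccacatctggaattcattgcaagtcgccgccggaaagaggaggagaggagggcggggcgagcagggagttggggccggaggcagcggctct
S1pr4, chr10:81500088-81500387, minus strand: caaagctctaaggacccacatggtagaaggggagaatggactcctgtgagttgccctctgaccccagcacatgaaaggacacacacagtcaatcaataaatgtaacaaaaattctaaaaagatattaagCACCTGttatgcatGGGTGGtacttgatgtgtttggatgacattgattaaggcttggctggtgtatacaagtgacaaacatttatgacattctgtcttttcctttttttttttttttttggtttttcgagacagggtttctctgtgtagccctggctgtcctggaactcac
Gpr183, chr14:121965144-121965443, minus strand: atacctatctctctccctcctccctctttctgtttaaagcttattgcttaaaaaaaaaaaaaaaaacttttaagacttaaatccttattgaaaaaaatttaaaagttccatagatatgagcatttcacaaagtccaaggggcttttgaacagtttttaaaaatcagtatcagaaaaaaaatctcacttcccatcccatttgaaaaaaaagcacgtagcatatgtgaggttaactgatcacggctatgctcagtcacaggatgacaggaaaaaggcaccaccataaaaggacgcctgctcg
The AP-1 and Bach core was in none of the 4 windows and in 5.20% of all 32851 promoter windows of the table. CACCTG was in the S1pr2 and S1pr4 windows and in 20.2% of all windows. The S1pr4 window also held the KLF motif, read there as its reverse complement GGGTGG, as did 31.5% of all windows, and the 2 matches do not overlap. The forkhead motif (3.65% of all windows) and CAGCTG (16.3%) were in none of the 4. A match is a description of these letters and not a binding site, and a missing match says nothing about binding elsewhere.

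Between the cell types, 6 of the 7 receptors outside the gate differed under either vector, 3 higher and 3 lower in Tfh cells. Cxcr4, S1pr2 and Gpr183 were higher in Tfh cells, and Selplg, Ccr7 and S1pr4 were lower (quasi-likelihood test of edgeR, Benjamini-Hochberg adjusted over the 11475 genes, threshold 0.05). Among all 11475 genes, 24.4% passed with the Bach2 vector (11.6% higher and 12.7% lower in Tfh cells) and 21.9% with empty vector (10.6% higher and 11.3% lower). In bulk libraries, fewer cells that express a gene and less of its RNA per cell cannot be told apart. The libraries of the cell types did not overlap for 7 of the 7 genes with empty vector, 3 higher and 4 lower, as for 62.2% of all genes (31.3% higher, 30.9% lower). With Bach2 they did not for 6 of 7, 3 in each direction, as for 59.8% of all genes (29.3% higher, 30.5% lower).

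Fewer calls were made for the vector. In Tfh cells with Bach2, 0 of the 8 receptors passed over all genes, where 1.71% of genes did (0.549% higher and 1.16% lower), and in non-Tfh cells 0 of 8 passed, where 0.871% did (0.253% higher and 0.619% lower). DESeq2 called 1 of the 8 in Tfh cells and 0 in non-Tfh cells, beside 312 and 159 of 19254 genes. With limma voom there were 1 and 0. At an unadjusted p under 0.05 in edgeR there were 5 and 2, beside 15.9% and 10.4% of all genes. The Bach2 and empty vector libraries did not overlap for 6 of 8 receptors in Tfh cells, 4 higher and 2 lower, and for 3 of 8 in non-Tfh cells, 1 higher and 2 lower. Among all genes that share was 44.6% in Tfh cells (21.7% higher, 22.9% lower) and 42.2% in non-Tfh cells (20.9% higher, 21.3% lower). Averaged over both cell types, which uses all 8 libraries, 2 of 8 passed, beside 5.27% of all genes (2.37% higher and 2.9% lower): Ccr7 was higher with Bach2 and Gpr183 lower. The average takes the Tfh and non-Tfh libraries of a vector as independent, as do the tests between the cell types and of the difference of effects. Whether the Tfh and non-Tfh cells of a vector were sorted from the same pool of nodes is not known here. No gene of the series passed for a difference of the vector effect between the cell types in edgeR (539 genes, or 4.7%, at an unadjusted p under 0.05, and 4 genes in DESeq2), so the effects of Tfh and non-Tfh cells are given side by side below and are not shown to differ.

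**Figure D1:**
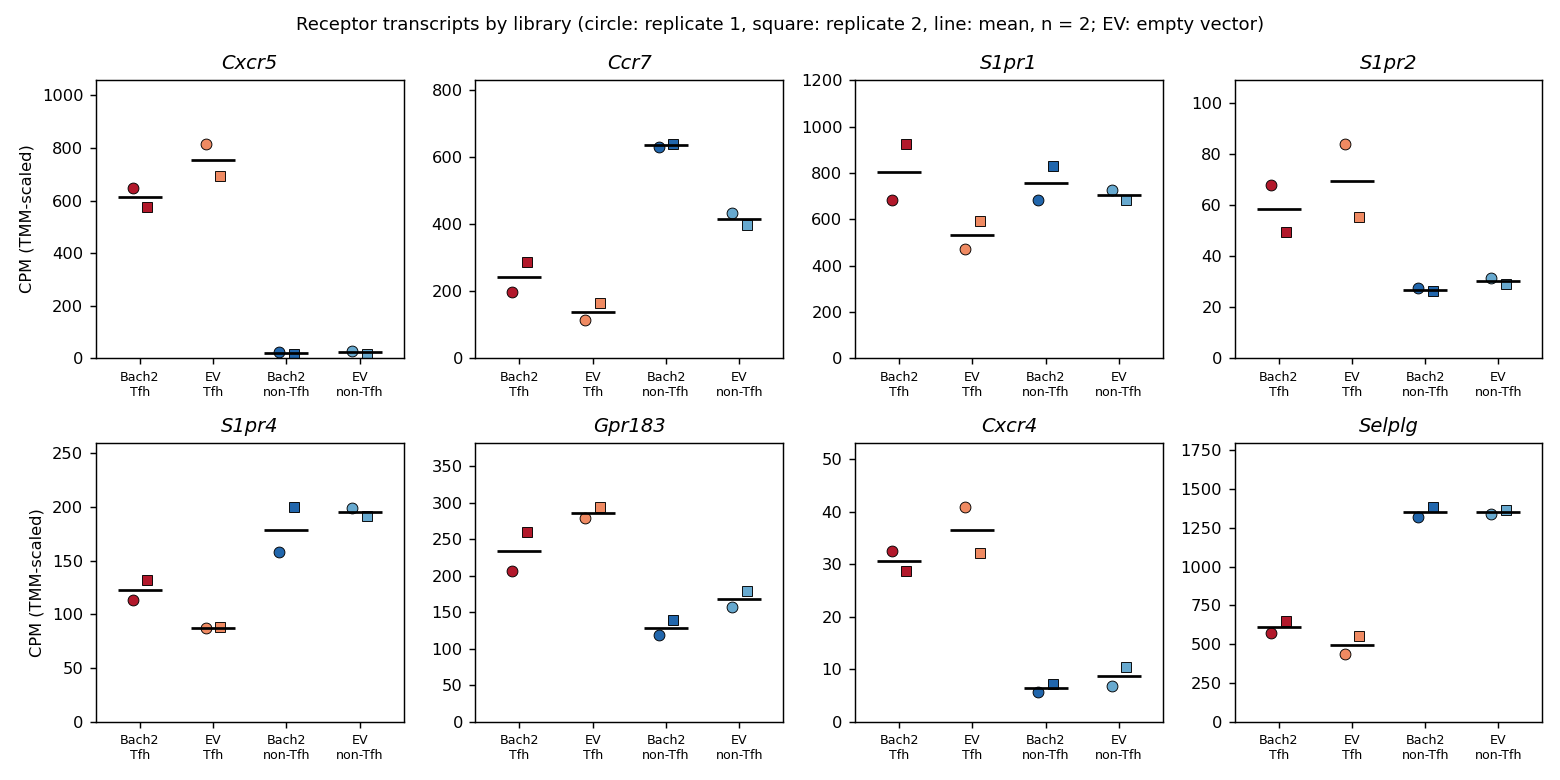
CPM (scaled by trimmed mean of M-values) of the 8 receptor genes in each library. Circles are replicate 1, squares replicate 2 and lines the means of 2 libraries, by group. Cxcr4, S1pr2 and Gpr183 lie higher in both Tfh groups than in both non-Tfh groups, Ccr7, S1pr4 and Selplg lower, and Ccr7 lies higher with Bach2 than with empty vector in each cell type.

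Cxcr5 (chromosome 9, 44511787 to 44561877, GRCm38, minus strand) opens the way into the follicle. Its level was 648 and 577 CPM in Bach2 Tfh libraries, against 815 and 694 CPM in empty vector Tfh libraries. Non-Tfh cells held 23.5 and 17.4 CPM with Bach2 and 28.2 and 17.4 CPM with empty vector. Both Bach2 Tfh libraries lay below both empty vector Tfh libraries, as 22.9% of all tested genes did, and the non-Tfh libraries overlapped. The change was -0.30 on the log2 scale in Tfh cells (95% interval -0.72 to 0.12, adjusted p = 0.483) and -0.16 in non-Tfh cells (-0.73 to 0.41, adjusted p = 0.896), neither past the threshold. The sort kept only CXCR5+ cells as Tfh, so that a cell that had lost the receptor would not have been counted there. Exons of Cxcr5 overlap exons of Bcl9l on the other strand, and these libraries do not mark strand.

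Ccr7 (chromosome 11, 99144196 to 99155077, minus strand), the receptor of the T cell zone, had the largest estimated vector effect of the 8 genes in each cell type. Tfh cells held 198 and 289 CPM with Bach2, against 114 and 165 CPM with empty vector. Non-Tfh cells held 631 and 639 CPM with Bach2, against 433 and 398 CPM with empty vector. In both cell types the Bach2 libraries lay above the empty vector libraries, which 8.35% of all tested genes did. The log2 fold change was 0.80 in Tfh cells (SE 0.218, 95% interval 0.28 to 1.32, adjusted p = 0.141), 0.61 in non-Tfh cells (SE 0.210, 0.11 to 1.11, adjusted p = 0.381) and 0.71 averaged over both (SE 0.151, 0.35 to 1.07, adjusted p = 0.0482). Only the average passed, and it was lost without any single non-Tfh library (adjusted p = 0.119 and 0.170 without empty vector replicates 1 and 2, 0.123 and 0.184 without Bach2 replicates 1 and 2), at estimates of 0.68 to 0.74. Conversely, the change in Tfh cells passed in 4 of 17 alternatives. They were limma voom (0.81, adjusted p = 0.0449), edgeR without its robust option (0.80, adjusted p = 0.0396) and edgeR with the replicate number as a block (0.80, adjusted p = 0.0278), besides the fit without replicate 1 of the Bach2 Tfh cells (1.05). In non-Tfh cells 1 alternative of 17 passed, the edgeR fit with only the 2 groups compared (0.61, adjusted p = 0.00455).

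Across cell types Ccr7 had less RNA in Tfh cells, by a log2 fold change against non-Tfh cells of -1.39 with Bach2 (SE 0.214, adjusted p = 0.00363) and -1.58 with empty vector (SE 0.219, adjusted p = 0.00247). The order of the group means was Bach2 non-Tfh (635 ± 5.54 CPM), empty vector non-Tfh (416 ± 24.5 CPM), Bach2 Tfh (243 ± 64.3 CPM) and empty vector Tfh (139.7 ± 35.8 CPM; SD, n = 2 each). Of the neighbours in this order, only the middle pair differed past the threshold: Bach2 Tfh cells were below empty vector non-Tfh cells (-0.77, SE 0.213, adjusted p = 0.0338), a comparison in which 29.5% of all genes passed.

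Gpr183 (chromosome 14, 121952551 to 121965195, minus strand) draws cells to the outer follicle, and was the member that fell with Bach2 in the average over cell types. Tfh cells held 207 and 259 CPM with Bach2 and 279 and 293 CPM with empty vector. Non-Tfh cells held 118 and 139.7 CPM with Bach2 and 157 and 179 CPM with empty vector. The Bach2 libraries lay below the empty vector libraries in both cell types, as they did for 9.46% of all tested genes. The changes were -0.30 in Tfh cells (SE 0.115, 95% interval -0.55 to -0.05, adjusted p = 0.2198) and -0.38 in non-Tfh cells (SE 0.118, -0.63 to -0.13, adjusted p = 0.2197). The average was -0.34 (SE 0.0822, -0.52 to -0.16, adjusted p = 0.0328), and this call was lost without 6 of the 8 libraries. Those were replicate 1 (-0.36, adjusted p = 0.0526) and replicate 2 (-0.32, adjusted p = 0.116) of the empty vector Tfh cells and replicate 1 (-0.38, adjusted p = 0.0547) and replicate 2 (-0.29, adjusted p = 0.146) of the empty vector non-Tfh cells. The others were replicate 1 of the Bach2 Tfh cells (-0.26, adjusted p = 0.0630) and replicate 1 of the Bach2 non-Tfh cells (-0.28, adjusted p = 0.0724).

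Gpr183 was nevertheless higher in Tfh than in non-Tfh cells, by 0.85 with Bach2 (SE 0.117, adjusted p = 0.000150) and 0.77 with empty vector (SE 0.116, adjusted p = 0.000334), and the libraries of the cell types did not overlap under either vector. Its means ran from empty vector Tfh (286 ± 9.995 CPM) through Bach2 Tfh (233 ± 37.1 CPM) and empty vector non-Tfh (168 ± 15.2 CPM) to Bach2 non-Tfh cells (129 ± 15.2 CPM). Here too the middle neighbours differed past the threshold (0.47 for Bach2 Tfh over empty vector non-Tfh cells, SE 0.116, adjusted p = 0.00797).

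Cxcr4 (chromosome 1, 128588199 to 128592293, minus strand), the receptor for the germinal centre dark zone, showed the widest gap between the cell types among the 7 genes outside the gate, at a low level. Tfh cells held 32.4 and 28.7 CPM with Bach2 and 40.8 and 32.1 CPM with empty vector. In non-Tfh cells the levels were 5.68 and 7.19 CPM with Bach2 and 6.87 and 10.5 CPM with empty vector. All 4 Tfh libraries lay above all 4 non-Tfh libraries, and the vectors overlapped in each cell type. Tfh cells were higher by 2.25 with Bach2 (SE 0.220, adjusted p = 5.88e-06) and by 2.08 with empty vector (SE 0.212, adjusted p = 8.94e-06). For the vector, the interval was -0.66 to 0.15 in Tfh cells (estimate -0.26, adjusted p = 0.565) and -0.95 to 0.10 in non-Tfh cells (-0.42, adjusted p = 0.593).

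S1pr1 (chromosome 3, 115710433 to 115715072, minus strand), the egress receptor, was the one member outside the gate that did not pass between the cell types in the reported fit, and its calls turned on the setting. Its level was 682 and 925 CPM in Bach2 Tfh cells, against 470.1 and 593 CPM in empty vector Tfh cells. The level in non-Tfh cells was 685 and 829.8 CPM with Bach2 and 727 and 683 CPM with empty vector. Both empty vector Tfh libraries lay below the other 6 libraries, which overlapped one another. The log2 fold change of Bach2 over empty vector was 0.60 in Tfh cells (SE 0.166, 95% interval 0.22 to 0.98, adjusted p = 0.125) and 0.10 in non-Tfh cells (SE 0.165, -0.27 to 0.48, adjusted p = 0.902). The difference between these effects was 0.49 (SE 0.233, -0.04 to 1.03, adjusted p = 0.998). Against non-Tfh cells, S1pr1 in Tfh cells was 0.08 higher with Bach2 (-0.29 to 0.46, adjusted p = 0.773) and 0.41 lower with empty vector (a log2 fold change of -0.41, -0.79 to -0.03, adjusted p = 0.122). The vector effect in Tfh cells passed in 3 of 17 alternatives, among them the fits without a filter on low counts (0.60, adjusted p = 1.85e-07) and without replicate 1 of the Bach2 Tfh cells (0.80, adjusted p = 0.0239). The empty vector comparison of cell types passed in 5 of 17, among them the fits without a filter (adjusted p = 0.000167), with only the 2 groups compared (0.0113), and without replicate 1 (0.0325) or replicate 2 (0.0323) of the Bach2 Tfh cells.

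S1pr2 (chromosome 9, 20962361 to 20976781, minus strand), the receptor that confines cells to the germinal centre, was higher in Tfh cells. They held 68.0 and 49.4 CPM with Bach2 and 84.1 and 55.3 CPM with empty vector. Non-Tfh cells held 27.6 and 26.4 CPM with Bach2 and 31.6 and 29.05 CPM with empty vector. The Tfh libraries lay above the non-Tfh libraries under both vectors, by 1.12 with Bach2 (SE 0.204, adjusted p = 0.00212) and 1.20 with empty vector (SE 0.202, adjusted p = 0.00136). The vectors overlapped in Tfh cells (-0.25, 95% interval -0.68 to 0.18, adjusted p = 0.597), and in non-Tfh cells the Bach2 libraries lay below, with a change of -0.17 (-0.63 to 0.29, adjusted p = 0.868). Replicate 1 was well above replicate 2 in both Tfh groups, and without replicate 1 of the empty vector Tfh cells the estimate in Tfh cells was 0.09 (adjusted p = 0.878).

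S1pr4 (chromosome 10, 81497747 to 81500132, minus strand) was lower in Tfh cells, at 113 and 132 CPM with Bach2 and 86.9 and 88.3 CPM with empty vector. Non-Tfh cells held 158 and 199 CPM with Bach2 and 199 and 192 CPM with empty vector. Tfh against non-Tfh cells gave -0.55 with Bach2 (SE 0.111, adjusted p = 0.00245) and -1.16 with empty vector (SE 0.113, adjusted p = 7.01e-06). With Bach2 both Tfh libraries lay above both empty vector Tfh libraries, as 21.7% of all tested genes did, and the non-Tfh libraries overlapped. The log2 fold change was 0.48 in Tfh cells (SE 0.114, 0.23 to 0.73, adjusted p = 0.0518), just outside the threshold, and -0.13 in non-Tfh cells (SE 0.110, -0.36 to 0.11, adjusted p = 0.759). The call in Tfh cells turned on the setting: S1pr4 passed in 9 of 17 alternatives, with adjusted p between 0.000210 and 0.289, among them DESeq2 (adjusted p = 0.0145) and the fits without replicate 1 of the Bach2 Tfh cells (0.0384) or without either Bach2 non-Tfh library (0.0205 without replicate 1, 0.0193 without replicate 2). The difference between the 2 effects, 0.61 (SE 0.158, 0.27 to 0.95), did not pass over all genes (adjusted p = 0.657).

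Selplg (chromosome 5, 113818536 to 113832644, minus strand), which encodes PSGL-1, was lower in every Tfh library than in any non-Tfh library. It was 572 and 651 CPM in Bach2 Tfh cells and 438 and 552 CPM in empty vector Tfh cells. Non-Tfh libraries held 1322 and 1382 CPM with Bach2 and 1338 and 1366 CPM with empty vector. The cell types differed by -1.15 with Bach2 (SE 0.104, adjusted p = 3.68e-06) and -1.45 with empty vector (SE 0.105, adjusted p = 5.43e-07). With Bach2 the Tfh libraries lay above the empty vector Tfh libraries, by 0.31 (SE 0.104, 0.08 to 0.53, adjusted p = 0.160), which missed the threshold. In non-Tfh cells the estimate was 0.0002 (-0.22 to 0.22), and the libraries of the vectors overlapped.

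Among the other receptors outside the gate, neighbouring means differed past the threshold only where the neighbours were of different cell types. S1pr2 and Cxcr4 had the order of Gpr183, and Bach2 Tfh cells stood above empty vector non-Tfh cells by 0.95 for S1pr2 (adjusted p = 0.00465) and 1.82 for Cxcr4 (adjusted p = 2.45e-05). Selplg had the order of Ccr7, with Bach2 Tfh cells below empty vector non-Tfh cells by a log2 fold change of -1.15 (adjusted p = 3.38e-06). For S1pr4 the means were 195.5 CPM in empty vector non-Tfh, 179 CPM in Bach2 non-Tfh, 122 CPM in Bach2 Tfh and 87.6 CPM in empty vector Tfh cells, and only the middle pair, both with Bach2, differed past the threshold. S1pr1 averaged 803 CPM in Bach2 Tfh, 757 CPM in Bach2 non-Tfh, 705 CPM in empty vector non-Tfh and 531 CPM in empty vector Tfh cells, with no neighbours past the threshold.

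**Figure D2:**
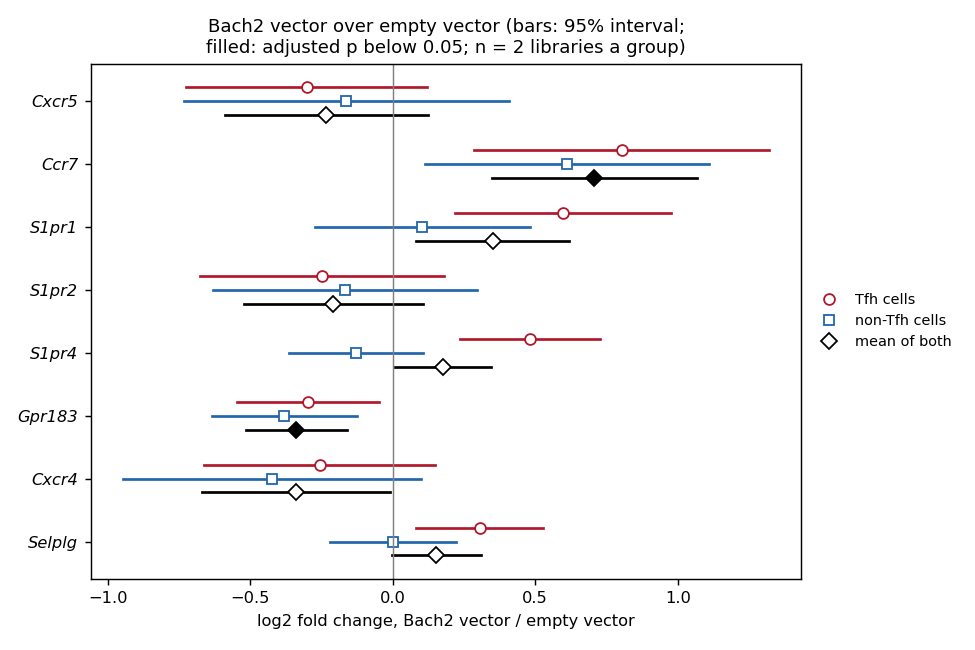
Log2 fold change of Bach2 over empty vector for each receptor gene in Tfh cells, in non-Tfh cells and averaged, with 95% intervals. Filled symbols passed an adjusted p of 0.05, which only the averages of Ccr7 (0.71) and Gpr183 (-0.34) did.

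**Figure D3:**
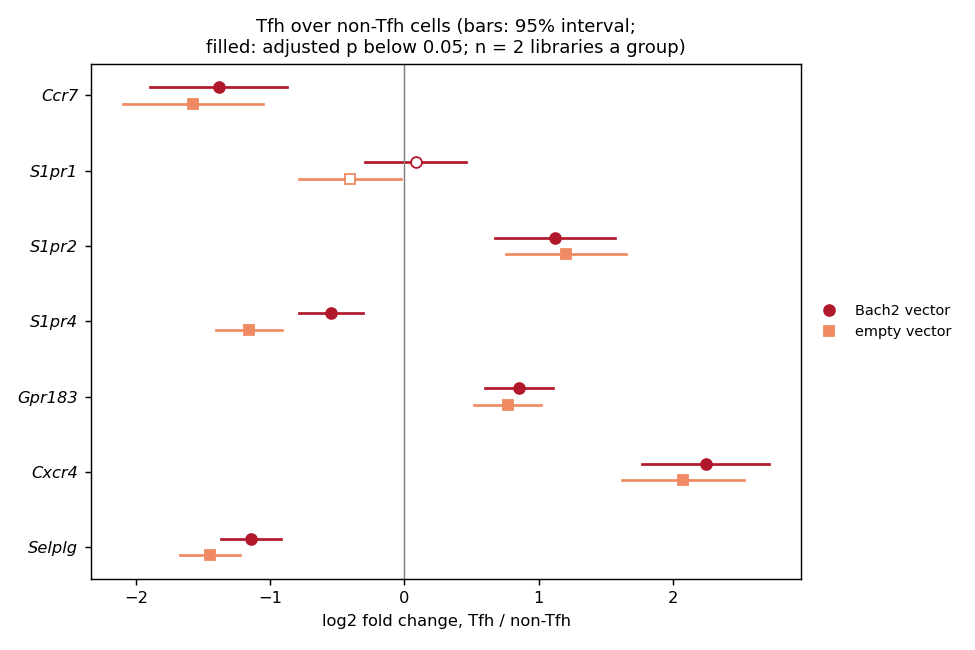
Log2 fold change of Tfh over non-Tfh cells with the Bach2 vector and with empty vector, with 95% intervals. Cxcr5 is left out because CXCR5 set the gate. All genes but S1pr1 passed under both vectors, with S1pr4 at -0.55 with Bach2 and -1.16 with empty vector.

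Levels of different genes were compared per kilobase of merged exons (CPM per kb). In empty vector Tfh cells Cxcr5 led with 226 ± 25.6, before S1pr1 (174 ± 28.4), Selplg (116 ± 18.9), Gpr183 (99.2 ± 3.46), Ccr7 (70.6 ± 18.1), S1pr4 (36.7 ± 0.430), Cxcr4 (20.2 ± 3.40) and S1pr2 (8.74 ± 2.55 CPM per kb; SD, n = 2 each). With Bach2, Tfh cells held more S1pr1 (264 ± 56.4) than Cxcr5 (184 ± 15.1) per kb, and Ccr7 (123 ± 32.5) stood above Gpr183 (80.7 ± 12.9). In empty vector non-Tfh cells Selplg (316 ± 4.49), S1pr1 (231 ± 10.1) and Ccr7 (210.2 ± 12.4 CPM per kb) were the highest. S1pr2, with 7971 merged exon bases the longest of the 8, was the lowest per kb in each group. In non-Tfh cells it was 3.39 ± 0.107 with Bach2 and 3.81 ± 0.229 CPM per kb with empty vector, next to Cxcr4 at 3.56 ± 0.594 with Bach2 and 4.79 ± 1.40 CPM per kb with empty vector. This rank rests on the merged length (1808 bases for Cxcr4), which can exceed the length of the transcript a cell makes. Without that division S1pr2 was above Cxcr4 in each group. With empty vector it was 69.7 against 36.5 CPM in Tfh and 30.3 against 8.67 CPM in non-Tfh cells.

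Ratios of a pair of receptors within a library do not depend on library scaling. The log2 ratio of Ccr7 to Cxcr5 was -1.71 and -0.997 in Bach2 Tfh libraries and -2.83 and -2.07 in empty vector Tfh libraries, a difference of 1.10. In non-Tfh cells the same ratio was 4.74 and 5.18 with Bach2 and 3.93 and 4.50 with empty vector, a difference of 0.74. In both cell types the Bach2 libraries lay above the empty vector libraries, and the exact two-sided permutation test within cell types gave p = 0.0556, the smallest that these 36 arrangements allow. For Ccr7 to S1pr2 the differences were 1.03 in Tfh and 0.78 in non-Tfh cells (exact permutation p = 0.111), for S1pr1 to S1pr2 they were 0.82 and 0.26 (0.167), and for Gpr183 to S1pr2 -0.07 and -0.22 (0.50). Within a single cell type, 2 libraries against 2 cannot go below an exact p of 0.333. Adjusted over these 4 ratios, the p-values were 0.222 for each of the first 3 and 0.50 for Gpr183 to S1pr2.

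**Figure D4:**
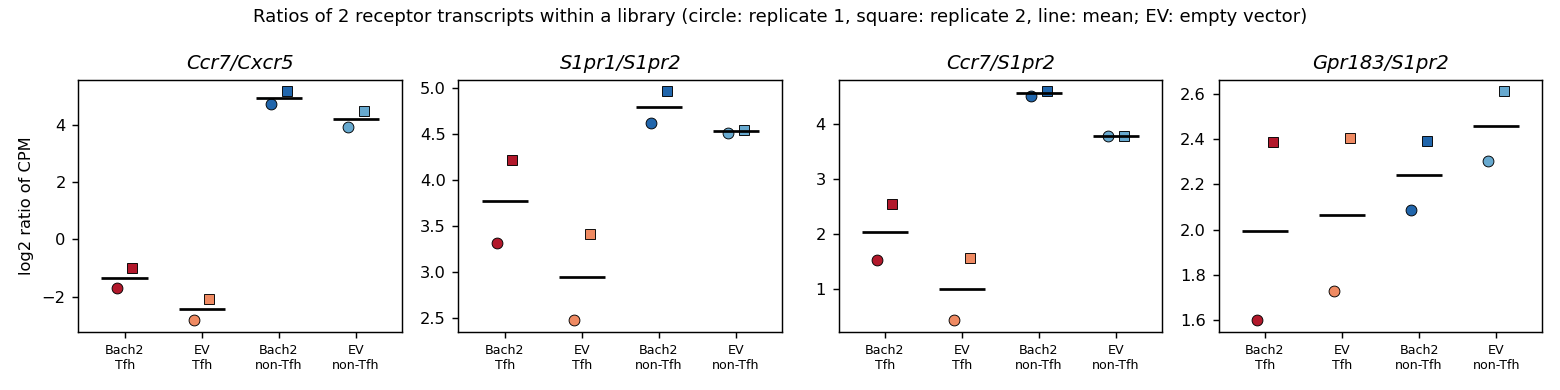
Log2 ratio of the CPM of 2 receptor transcripts in each library, by group, with lines at the means of 2 libraries. The Ccr7 to Cxcr5 ratio is higher with Bach2 than with empty vector in both cell types. The Gpr183 to S1pr2 ratio overlaps between vectors.

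Among 17 transcription factor genes reported to act on these receptors, all tested, 5 rose and 0 fell with Bach2 in Tfh cells, beside 0.549% and 1.16% of all genes. Bach2 itself is counted among those that rose, here and below, and its rise was set by the vector. The others that rose in Tfh cells were Foxp1, Klf3, Lef1 and Foxo1, and their log2 fold changes lay between 0.42 and 0.59. Klf3 rose to 148 ± 25.9 CPM, against 99.2 ± 2.53 CPM with empty vector (0.57, adjusted p = 0.0223). In non-Tfh cells Bach2 and Lef1 rose while Prdm1, a repressor of the Tfh fate, and Maf fell. With Bach2 counted this was 2 in each direction, beside 0.253% higher and 0.619% lower among all genes. Averaged over the cell types 7 rose, Bach2 among them, and 3 fell (Bcl6, Maf and Hif1a), beside 2.37% and 2.9% of all genes, with a median of 0.05 beside 0.00 over all genes. Bcl6, on which the Tfh fate depends, was 111 ± 13.0 CPM in Bach2 Tfh and 147 ± 17.3 CPM in empty vector Tfh cells, and 15.2 ± 1.69 CPM with Bach2 against 22.4 ± 2.50 CPM with empty vector in non-Tfh cells (average -0.48, SE 0.0986, adjusted p = 0.0136).

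Klf2, which activates S1pr1 and restrains Tfh differentiation, was 362 and 443 CPM in Bach2 Tfh cells and 187 and 301 CPM in empty vector Tfh cells. In non-Tfh cells it was 431 and 601 CPM with Bach2 and 419 and 524 CPM with empty vector. The Tfh libraries of the vectors did not overlap, but the change was not past the threshold (0.72, adjusted p = 0.322), nor was the average (0.43, adjusted p = 0.327). Ascl2, which raises Cxcr5 and lowers Ccr7 and Selplg in mouse T cells, had 46 counts in the 2 Bach2 Tfh libraries and 90 in the 2 empty vector Tfh libraries. Its change there was not past the threshold (-0.90, adjusted p = 0.380), and each non-Tfh group held 1 count. With empty vector, Ascl2 was 92.8 times as high in Tfh as in non-Tfh cells (95% counting interval 16.2 to 3708).

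**Figure D5:**
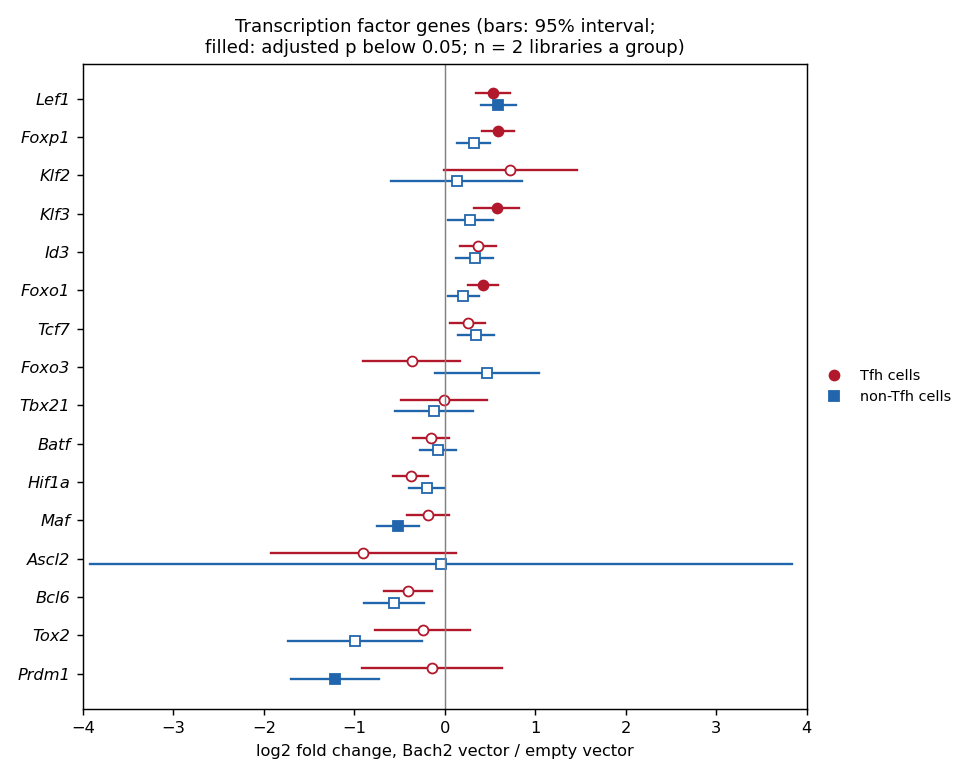
Log2 fold change of Bach2 over empty vector for 16 transcription factor genes (the list without Bach2), in Tfh and non-Tfh cells, with 95% intervals. Filled symbols passed an adjusted p of 0.05: Lef1 in both cell types, Foxp1, Klf3 and Foxo1 in Tfh cells, and Maf and Prdm1 in non-Tfh cells.

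Of 38 listed genes for G protein coupling and desensitisation, 34 were tested, and with Bach2 0 passed in either cell type by edgeR. Among all genes 1.71% passed in Tfh and 0.871% in non-Tfh cells. At an unadjusted p under 0.05 in edgeR there were 6 in Tfh and 3 in non-Tfh cells, beside 15.9% and 10.4% of all genes. DESeq2 called 3 and 1, beside 312 and 159 of 19254 genes, and limma voom 0 and 0. In the average 2 rose and 1 fell, beside 2.37% and 2.9% of all genes, with a median of -0.04. Arhgef1, which links S1PR2 and the G protein Gna13 to RhoA, was 989 ± 88.7 CPM with Bach2 and 785 ± 8.69 CPM with empty vector in Tfh cells, and 1135 ± 113 CPM with Bach2 against 958 ± 34.2 CPM with empty vector in non-Tfh cells (0.29, adjusted p = 0.0185). Rgs16, a brake on chemokine receptor signals, was 18.9 ± 6.90 CPM with Bach2 against 30.9 ± 3.81 CPM with empty vector in Tfh and 4.94 ± 0.884 CPM with Bach2 against 10.7 ± 2.26 CPM with empty vector in non-Tfh cells (-0.91, adjusted p = 0.0147). Pik3r5, a regulatory subunit of the PI3 kinase that G proteins activate, was 26.6 ± 7.76 CPM with Bach2 against 12.9 ± 2.74 CPM with empty vector in Tfh and 101 ± 18.5 CPM with Bach2 against 84.5 ± 13.4 CPM with empty vector in non-Tfh cells (0.66, adjusted p = 0.0483). Between the cell types 5 were higher and 5 lower in Tfh cells with Bach2 and 3 higher and 5 lower with empty vector, shares near the 24.4% and 21.9% of all genes that passed. Among the largest differences under both vectors, Rgs16 and Rgs10 were higher and Rgs1 and Pik3r5 lower in Tfh cells.

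All 19 genes of PSGL-1 glycosylation and the selectin pathway were tested. Tfh cells had 1 higher and 8 lower with Bach2 (median -0.64) and 0 higher and 10 lower with empty vector (median -0.50), beside medians of 0.00 and 0.01 over all genes. Among all genes 11.6% were higher and 12.7% lower with Bach2, and 10.6% higher and 11.3% lower with empty vector. Fut7, the fucosyltransferase that makes PSGL-1 able to bind selectins, was 16.4 ± 3.50 CPM in Bach2 Tfh and 72.0 ± 1.13 CPM in Bach2 non-Tfh cells (-2.14, adjusted p = 4.11e-07), and 20.2 ± 3.53 CPM in empty vector Tfh against 115 ± 4.20 CPM in empty vector non-Tfh cells (-2.52, adjusted p = 6.29e-08). With Bach2 it was lower in non-Tfh cells (-0.68, adjusted p = 0.0313), where the Selplg estimate was 0.0002. The others with the largest differences between cell types included Galnt3, St3gal6 and St3gal4.

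Of 14 genes for making, breaking down, moving or sensing S1P, 7 were tested and none of them passed for the vector by edgeR, DESeq2 or limma voom. By edgeR 1.71% of all genes passed in Tfh and 0.871% in non-Tfh cells. At an unadjusted p under 0.05 in edgeR there were 1 in Tfh and 0 in non-Tfh cells, beside 15.9% and 10.4% of all genes. Between the cell types 2 were higher and 2 lower in Tfh cells with Bach2, beside 24.4% of all genes in either direction. With empty vector 2 were higher and 1 lower, beside 21.9%. Cd69, whose protein removes S1PR1 from the cell surface, was 57.1 ± 8.53 CPM in Bach2 Tfh and 63.4 ± 3.88 CPM in empty vector Tfh cells (-0.15, adjusted p = 0.597). Tfh cells had less of it than non-Tfh cells, by -0.65 with Bach2 (adjusted p = 0.000886) and -0.46 with empty vector (adjusted p = 0.00952). The S1P lyase gene Sgpl1 was higher in Tfh cells, by 0.52 with Bach2 (adjusted p = 0.00109) and 0.36 with empty vector (adjusted p = 0.0138), as was the phosphatase gene Sgpp2 at a low level (4.88 ± 2.46 CPM in Bach2 Tfh against 0.787 ± 0.341 CPM in Bach2 non-Tfh cells). Plpp1, a lipid phosphatase, passed with Bach2 (-1.65, adjusted p = 0.0315) and not with empty vector, and the difference between the vectors did not pass.

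Ligands and scavengers of these receptors are made largely by other cells, and 2 of 15 listed were tested. Mif, a cytokine that can bind CXCR4, fell in Tfh cells with Bach2, to 109 ± 5.71 CPM against 140.3 ± 4.18 CPM with empty vector (-0.36, adjusted p = 0.0494). This call was lost with limma voom (adjusted p = 0.0680) and without any single library (adjusted p between 0.0524 and 0.311 over the 8 omissions). In non-Tfh cells it was 128 ± 0.932 CPM with Bach2 against 138 ± 0.797 CPM with empty vector (-0.12, adjusted p = 0.693).

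For comparison, 24 of 29 other chemokine and homing receptors were tested. With Bach2, 0 rose and 1 fell in non-Tfh cells by edgeR (Gpr15), beside 0.253% and 0.619% of all genes. In these cells DESeq2 called 4, beside 159 of 19254 genes, and limma voom 3, and 6 had an unadjusted p under 0.05 in edgeR, beside 10.4% of all genes. In Tfh cells 0 passed by edgeR, beside 1.71% of all genes, 3 by DESeq2, beside 312 of 19254 genes, and 0 by limma voom. An unadjusted p under 0.05 in edgeR was found there for 7, beside 15.9% of all genes. In the average over cell types 5 fell (Ccr4, Gpr15, P2ry14, Cxcr6 and Cxcr3) and 0 rose, beside 2.9% and 2.37% of all genes, with a median of -0.34 beside 0.00 over all genes. Ccr4, a receptor of skin-homing and Th2 cells, was 19.2 ± 3.40 CPM with Bach2 against 37.1 ± 3.20 CPM with empty vector in Tfh and 18.4 ± 7.60 CPM with Bach2 against 42.4 ± 6.02 CPM with empty vector in non-Tfh cells (-1.08, adjusted p = 0.00823). Cxcr6, a receptor of effector T cells, was 47.4 ± 8.19 CPM with Bach2 against 68.0 ± 6.37 CPM with empty vector in Tfh and 443 ± 103 CPM with Bach2 against 674 ± 52.1 CPM with empty vector in non-Tfh cells (-0.56, adjusted p = 0.0333). In Tfh against non-Tfh cells 1 was higher (Ptger2) and 16 lower with Bach2, beside 11.6% and 12.7% of all genes, and 1 higher and 12 lower with empty vector, beside 10.6% and 11.3%. Ccr2, a receptor of inflammatory sites, was 10.2 ± 7.80 CPM in Bach2 Tfh and 179 ± 55.5 CPM in Bach2 non-Tfh cells, and 13.6 ± 3.56 CPM in empty vector Tfh against 257 ± 22.3 CPM in empty vector non-Tfh cells. Ltb4r1, a leukotriene receptor, had 3 counts in the Tfh libraries of each vector. Relative to Tfh cells, non-Tfh cells held 24.0 times as much with Bach2 (95% counting interval 7.90 to 119) and 26.8 times with empty vector (8.86 to 133). P2ry12 had 0 counts in Bach2 Tfh cells and 21 in Bach2 non-Tfh cells. Set against 3 counts over the Tfh group the ratio was 6.45, without the counting error of the 21.

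The genes closest in pattern to each receptor were ranked by the root mean square (RMS) difference of log2 CPM, centred per gene, over the 8 libraries. The nearest to Ccr7 were Sik1 (0.149) and Tnfsf10 (0.166). For S1pr1 they were Cdc25b (0.0705), Napepld (0.0792) and Ripor2 (0.0890), and for S1pr4 Tob1 (0.0853), Pprc1 (0.102) and Larp1 (0.103). S1pr2 was nearest to Smox (0.13), Sh2d1a (0.14), which encodes the adaptor SAP, and Trib1 (0.14). Gpr183 lay nearest to Caskin2 (0.11), Irf8 (0.13) and Hivep3 (0.14), and Selplg to Esyt1 (0.0737), Emp3 (0.0846) and Itgb1 (0.100). The low-level Cxcr4 had no gene closer than Ctsl (0.25), followed by Mirt1 (0.25) and Slc1a4 (0.26). The gate gene Cxcr5 had none closer than Sccpdh (0.36), followed by Tox2 (0.39) and Il4 (0.39). These distances share the same libraries and are a description.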

How the data were processed

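RNA was sequenced as 75-nucleotide read pairs from Smart-Seq v4 and Nextera XT libraries, which do not mark strand, per the labels' protocols. The deposited files hold raw counts of reads per gene for each library. Per the submitters' processing notes, the authors used TopHat2, Bowtie2 and featureCounts with GRCm38 (mm10). Their versions, the annotation and the handling of multi-mapped reads: not given in the sources used here. Symbols, positions and exon lengths came from GENCODE M21, which 37693 of 39179 gene IDs matched; the other 1486 held 0.187 to 0.205% of the counts.

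Genes were filtered with filterByExpr (minimum count 10, minimum total 15), which left 11475, and scaled by TMM factors. All 8 libraries entered 1 edgeR 4.0.16 fit (robust quasi-likelihood, R 4.3.3) with a mean per group, 4 residual degrees of freedom and Benjamini-Hochberg adjustment over all tested genes, at a threshold of 0.05. DESeq2 1.42.0, limma voom (limma 3.58.1), other scalings and filters, a replicate block and the omission of each library were tried as alternatives. Totals of 7862879 to 9889859 counts per library set the precision. Nothing in the labels says that the 2 samples of a group came from separate animals or cultures, so p-values measure only the spread between these samples, which may be technical.

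The genes and lists were chosen with earlier results of these data known. Besides the 8 receptors, the text names Bach2, the gate genes, and Klf2, Foxo1, Ascl2 and Cd69. From each list and comparison it draws on the up to 4 genes with the largest change past the threshold, though not all of these are named. Hif1a, Cxcr3 and Ptger2 were added after their values were seen. So were Foxp1, Klf3 and Lef1 where a count called for them, which are also among the genes of largest change in Tfh cells. For each receptor the 3 genes of most similar pattern (log2 CPM with a prior count of 2) are named. A gene that met these rules is not reported here.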

Additional observations from a re-analysis of the deposited data

How the results depend on the processing

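The cell type calls of Ccr7, S1pr2, S1pr4, Gpr183, Cxcr4 and Selplg held under both vectors in all 17 alternatives. The vector calls did not, and the cause was not tested. Genes past the threshold for Bach2 against empty vector numbered 736 without a filter on low counts, 312 with DESeq2 and 473 with the replicate block in Tfh cells (196 in the reported fit). In non-Tfh cells they numbered 332, 159 and 207 (100 reported). Averaged over cell types there were 1255 without a filter and 975 with the block (605 reported), and for the difference between cell types 37 without a filter, 4 with DESeq2 and 3 with the block (0 reported). These counts are over unlike sets of genes: 19254 without a filter and with DESeq2, and 11475 with the block and in the reported fit.

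Of the 8 receptors in Tfh cells, where 0 passed in the reported fit, 1 passed in each of 6 settings. It was S1pr4, higher, with DESeq2 size factors, upper quartile factors, DESeq2 or only the 2 groups compared. With limma voom or no robust option it was Ccr7, higher. Without a filter 4 passed (S1pr1, S1pr4 and Selplg higher, Gpr183 lower), and with the replicate block 3 (Ccr7, S1pr1 and S1pr4, all higher). In non-Tfh cells 1 passed in each of 3 settings: Gpr183, lower, without a filter or with the block, and Ccr7, higher, in the 2 groups alone. For the difference between cell types 1 (S1pr4) passed without a filter. Of 23 steps between neighbouring group means, 6 passed as reported, 11 without a filter and 10 with the block. The near-zero Selplg change in non-Tfh cells was -0.0031 with DESeq2 size factors, -0.0019 with upper quartile factors, -0.00017 with a stricter filter, -0.0024 with DESeq2 and -0.00075 with the block.

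Leaving out each library gave 21 to 254 genes in Tfh cells, 17 to 133 in non-Tfh cells, 190 to 764 averaged, 0 to 1 for the difference, and 1922 to 2735 (Bach2) and 1341 to 2698 (empty vector) between cell types. Of the receptors, 0 to 3, 0 to 0, 0 to 2 and 0 to 0 passed for the vector in the same order, 6 to 6 and 6 to 7 between cell types, and 4 to 8 of the steps. Changes with Bach2 that changed sign were those of S1pr2 in Tfh cells (-0.52 to 0.089) and, in non-Tfh cells, Cxcr5 (-0.47 to 0.23), Selplg (-0.031 to 0.031), S1pr4 (-0.30 to 0.028) and S1pr1 (-0.040 to 0.23). So did S1pr1 between cell types with Bach2 (-0.15 to 0.29) and the differences of effects of Ccr7 (-0.10 to 0.47), S1pr2 (-0.35 to 0.25), Cxcr5 (-0.53 to 0.16), Gpr183 (-0.087 to 0.24) and Cxcr4 (-0.17 to 0.44). The ratio differences in Tfh, non-Tfh and both were 0.72 to 1.48, 0.46 to 1.03 and 0.73 to 1.11 for Ccr7 to Cxcr5, 0.47 to 1.60, 0.74 to 0.82 and 0.62 to 1.19 for Ccr7 to S1pr2, 0.35 to 1.29, 0.093 to 0.43 and 0.31 to 0.78 for S1pr1 to S1pr2, and -0.47 to 0.32, -0.37 to -0.065 and -0.34 to 0.051 for Gpr183 to S1pr2. A group left with 1 library was assumed to vary like the others.

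The replicate numbers were not treated as pairs: deviations of same-numbered libraries correlated between -0.0041 and 0.240 over the 6 pairs of groups, and there are only 2 numbers. The highest correlations were between Tfh and non-Tfh libraries of the same vector (0.240 with Bach2 and 0.208 with empty vector). A shared pool of nodes was not tested. With the block, S1pr1 passed in Tfh cells (0.59, adjusted p = 0.00576), in the average (0.34, adjusted p = 0.01001) and between cell types with empty vector (-0.42, adjusted p = 0.00698), by edgeR. The fit of the 2 groups alone could not be run for the average and the difference.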

Other observations

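In both Tfh groups replicate 2 differed from replicate 1 in the same direction for 8 of 8 receptors, against 47.6% of the 11475 tested genes. In the non-Tfh groups this held for 5 of 8 receptors and 52.3% of genes. Ccr7 in replicate 2 was 1.46 times its level in replicate 1 in Bach2 Tfh cells and 1.44 times in empty vector Tfh cells. The ratio of replicate 2 to replicate 1 in Bach2 Tfh and empty vector Tfh cells was 1.36 and 1.26 for S1pr1, 0.726 and 0.658 for S1pr2, and 0.890 and 0.852 for Cxcr5. Pdcd1 was also lower in replicate 2, at 381 CPM against 613 CPM in replicate 1 of the Bach2 Tfh cells and 454 CPM against 659 CPM in replicate 1 of the empty vector Tfh cells. Replicate numbers carry no label beyond the number itself, and a shared source of these shifts was not tested.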
